A study of Mus musculus with 24 samples.

Results

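Sensory neurons of the dorsal root ganglion (DRG) carry receptors for growth factors that are secreted by skin, muscle, glia and other neurons, and 9 genes for such receptors were followed here: Ngfr, Ntrk2 and Ntrk3 of the neurotrophin system, Ret, Gfra1, Gfra2 and Gfra3 of the GDNF family system, and Kit and Met, which encode the receptors for stem cell factor and hepatocyte growth factor and belong to neither family. The genes were grouped by their function, and the choice was made with earlier results of these data known. They are the rows of the count files whose Ensembl gene identifier maps to these symbols. All 9 were found among the 47643 gene identifiers, and all 9 passed the filter on low counts that left 17178 genes for testing.

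The study deleted Tsc2, whose product restrains the growth kinase complex mTORC1, in nociceptors. Nav-Tsc2 mice carried Nav1.8-Cre, a floxed and a null Tsc2 allele and the Rosa26-ZsGreen reporter. Control mice carried Nav1.8-Cre, a floxed and a wild-type Tsc2 allele and the same reporter, so that their recombined cells keep a working copy. The Nav1.8 promoter drives Cre in most nociceptors and in some myelinated DRG neurons, which bounds what the sorted population can hold, and the null allele of Nav-Tsc2 mice is present in every cell of the animal. The mice were of a mixed C57BL/6 and AJ background and 8 to 9 weeks old, and their L4 ganglia were taken 3 d after a crush of the sciatic nerve on the opposite side. Green cells were sorted in pools of 100, with 3 pools from each of 4 mice per genotype, which gave 24 libraries. In both genotypes mice 1 and 2 were male and mice 3 and 4 were female. The 3 pools of a mouse are technical repeats, so their counts were summed and the mouse was the replicate, with n = 4 per genotype.

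Libraries held between 8339220 and 34228180 counts on genes, and the sums per mouse held between 47959617 and 61290435. Tsc2 itself averaged 20.9 ± 5.18 CPM (SD; CPM, counts per 1000000 counts on genes after TMM scaling) in Control and 8.87 ± 1.52 CPM in Nav-Tsc2 mice, and no Control mouse overlapped a Nav-Tsc2 mouse (log2 fold change −1.24, SE 0.22, edgeR adjusted p = 0.00400). Pan-neuronal genes were present in every mouse, with the 8 markers listed summing to between 14367 and 17702 CPM over both genotypes. Single genes of that list moved in opposite directions under this sum. By the rule for genotype differences 2 were called lower in Nav-Tsc2 mice, Snap25 (4402 and 2051 CPM) and Rbfox3 (98.5 and 55.6 CPM). Prph was called higher (902 and 1481 CPM), and 5 were not called. Of all genes tested 8.00% were called lower and 9.12% higher. Glial transcripts were present as well. The summed level of 14 glial markers ran from 3152 to 3280 CPM in Control and from 2095 to 2700 CPM in Nav-Tsc2 mice. Within that list 1 gene was called by the rule for genotype differences, S100b, which large neurons also express (939 CPM in Control and 98.6 CPM in Nav-Tsc2 mice, log2 fold change −3.25, SE 0.51, edgeR adjusted p = 0.00218).

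Neurotrophins act through Trk receptor tyrosine kinases and through p75NTR, the product of Ngfr, which binds every neurotrophin and changes the affinity of the Trk receptors. Ntrk2 encodes TrkB, the receptor for BDNF, and Ntrk3 encodes TrkC, the receptor for NT-3, and these mark mainly myelinated mechanoreceptors and proprioceptors in the adult ganglion. GDNF family ligands bind a lipid-anchored GFRα co-receptor that presents them to the kinase Ret: GFRα1 prefers GDNF, GFRα2 neurturin and GFRα3 artemin. In the nociceptor lineage Ret and Gfra2 mark the nonpeptidergic neurons and the C-low threshold mechanoreceptors, whereas p75NTR and GFRα3 are found mostly on peptidergic neurons.

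A gene was called changed between genotypes at an adjusted p under 0.05 with a log2 fold change beyond 0.5 in either direction. By this rule 3 of the 9 receptors were called: Ngfr and Kit were lower in Nav-Tsc2 mice and Gfra3 was higher. Over all genes tested the rule called 17.1%, with 8.00% lower and 9.12% higher. In the same 3 receptors the 4 Nav-Tsc2 mice and the 4 Control mice did not overlap, which was also so for 26.9% of all genes tested. The median log2 fold change of the 9 receptors was 0.39 and that of all genes tested was 0.01. With 9 genes these counts are read as a description of the receptors and not as a property of the families.

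**Figure D1:**
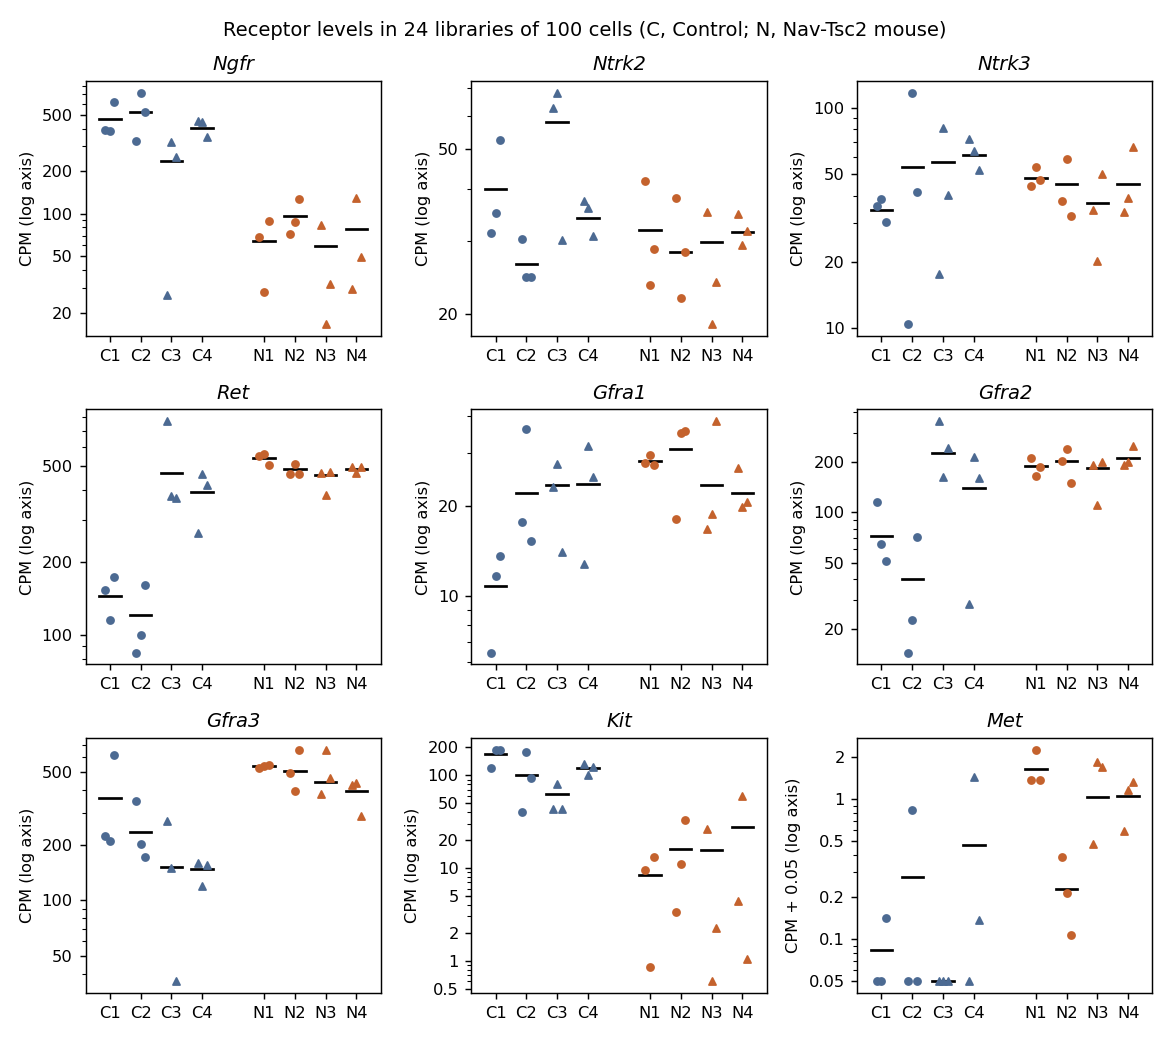
Level of each receptor in CPM (log axes; 0.05 added for Met, which is 0 in 8 Control libraries), with 1 point per library, circles for male and triangles for female mice, Control in blue (C1 to C4) and Nav-Tsc2 in orange (N1 to N4), and a bar at the level of each mouse. Ngfr and Kit are lower and Gfra3 is higher in every Nav-Tsc2 mouse than in every Control mouse, and Ret and Gfra2 are low in Control mice 1 and 2 but not in Control mice 3 and 4.

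Ngfr was the neurotrophin receptor gene with the clearest difference. Its levels in Control mice 1 to 4 were 467, 522, 237 and 404 CPM, and in Nav-Tsc2 mice 1 to 4 they were 64.2, 96.5, 59.5 and 78.6 CPM. Every Nav-Tsc2 mouse was therefore below every Control mouse. The means were 407 ± 124 and 74.7 ± 16.6 CPM (SD, n = 4 each), a level 5.45-fold lower in Nav-Tsc2 mice, with a log2 fold change of −2.45 (SE 0.25, 95% interval −3.00 to −1.89, edgeR adjusted p = 0.000239). Among single pools, 11 of the 12 Control libraries were above the highest Nav-Tsc2 library at 128 CPM. The exception was library A of Control mouse 3, at 26.7 CPM, whereas the other libraries of that mouse held 321 and 253 CPM. In bulk pools such as these, fewer cells of a type and less RNA per cell cannot be told apart, which applies to every difference given here.

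Kit, the receptor that stem cell factor activates, fell with Ngfr and by a similar amount. Control mice 1 to 4 held 169, 102, 62.9 and 120 CPM of Kit, and Nav-Tsc2 mice held 8.31, 16.0, 15.7 and 28.0 CPM. The highest Nav-Tsc2 mouse was thus below the lowest Control mouse. The means were 113 ± 43.8 and 17.0 ± 8.14 CPM, a level 6.66-fold lower in Nav-Tsc2 mice, with a log2 fold change of −2.74 (SE 0.39, 95% interval −3.61 to −1.86, edgeR adjusted p = 0.00129). What remained of Kit in Nav-Tsc2 mice was unevenly spread over their pools. The 12 Nav-Tsc2 libraries ran from 0.599 to 60.0 CPM with a median of 6.98 CPM, against 40.3 to 190 CPM with a median of 110 CPM in Control libraries. In Nav-Tsc2 mouse 3 a single library supplied 95.2% of the Kit counts, at 26.3 CPM against 0.599 and 2.25 CPM in the others, and in mouse 4 a single library supplied 94.6%, at 60.0 CPM against 4.39 and 1.03 CPM. In all, 11 of 12 Nav-Tsc2 libraries were below the lowest Control library.

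Mast cells and melanocytes also express Kit, and their markers were measured alongside it. The 7 mast cell markers summed to between 1.00 and 4.62 CPM in Control and between 0.0677 and 0.453 CPM in Nav-Tsc2 mice. The defining mast cell genes Mcpt4, Tpsb2, Tpsab1 and Fcer1a were at 0 in all 8 mice, and 1 of the 7, Cpa3, had enough counts for a test, which it did not pass (log2 fold change −2.86, edgeR adjusted p = 0.0679). The 5 melanocyte markers summed to between 6.60 and 7.93 CPM in Control and between 2.61 and 5.00 CPM in Nav-Tsc2 mice. Of these, Mlana was at 0 in every Control mouse and Tyr in every Nav-Tsc2 mouse. Of the melanocyte markers 2 had enough counts for a test and 1 was called, Tyrp1, at 7.21 CPM in Control and 3.31 CPM in Nav-Tsc2 mice without overlap (log2 fold change −1.12, SE 0.29, edgeR adjusted p = 0.0219). Tyrp1 supplied most of the melanocyte sum. The paper lists Tyrp1 among the genes enriched in Nav1.8-positive neurons that do not bind the lectin IB4, so this sum is not particular to melanocytes. In the paper's own comparison of the genotypes Tyrp1 was not called, unlike here. The mast cell and melanocyte sums both moved in the direction of Kit, and their part in the difference was not tested.

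The start regions of Ngfr and Kit are shown because these are the receptor genes that were lower together. Ngfr (ENSMUSG00000000120.6) lies at chr11:95568818-95587735 on the minus strand and Kit (ENSMUSG00000005672.12) at chr5:75574916-75656722 on the plus strand of mm10. Each line gives the bases that end just before the annotated gene, 5′ to 3′ on the strand of the gene, from RefSeq on GRCm38.p6, with matches to the GC box GGGCGG, or its reverse complement CCGCCC, in capitals. The stretch of Ngfr is 213 bases at chr11:95587736-95587948 and that of Kit is 179 bases at chr5:75574737-75574915.
Ngfr: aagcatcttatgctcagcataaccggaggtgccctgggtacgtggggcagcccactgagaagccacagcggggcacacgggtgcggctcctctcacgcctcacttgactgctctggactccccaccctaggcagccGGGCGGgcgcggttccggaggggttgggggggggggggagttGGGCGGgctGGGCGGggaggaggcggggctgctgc
Kit: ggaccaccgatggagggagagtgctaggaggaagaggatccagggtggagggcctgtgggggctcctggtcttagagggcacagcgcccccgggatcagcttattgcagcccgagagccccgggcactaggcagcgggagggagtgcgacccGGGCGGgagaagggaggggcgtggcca
The Ngfr stretch held 3 matches and the Kit stretch held 1. In the 250 bases before the RefSeq start, Ngfr held 4 matches and Kit 1, and 32.7% of the 32851 RefSeq mouse promoters in windows of that length held at least 1. Neither gene's window held TGTGGT, the core motif bound by RUNX factors, on either strand, which 14.0% of all windows held. The windows of Ngfr and Kit were 70.4% and 70.8% G or C, against a median of 52.4%. Those of Met and Ntrk2, which were not called, were 74.0% and 62.8% G or C and held 3 and 0 GC box matches. Among the windows given here, G or C content and GC boxes were thus not particular to the receptors that were lower. Windows of the other receptors, Gfra3 among them, are not reported here. The GC box and RUNX matches describe the letters only.

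The Trk kinases TrkB and TrkC were present at low levels that differed little between genotypes. Ntrk2 (chr13:58806569-59133970) held 40.1, 26.4, 58.1 and 34.2 CPM in Control mice 1 to 4 and 31.9, 28.2, 29.8 and 31.6 CPM in Nav-Tsc2 mice. The genotypes overlapped, with a log2 fold change of −0.39 (SE 0.21, 95% interval −0.86 to 0.09, edgeR adjusted p = 0.238). Ntrk3 (chr7:78175959-78738012) held 34.5, 54.2, 56.9 and 61.1 CPM in Control and 48.2, 45.4, 37.2 and 45.3 CPM in Nav-Tsc2 mice, and the genotypes again overlapped (log2 fold change −0.23, SE 0.17, 95% interval −0.62 to 0.16, edgeR adjusted p = 0.395). Both intervals leave out a change of 1 log2 unit in either direction, but this does not hold within females. There the values were −0.59 for Ntrk2 (95% interval −1.24 to 0.07, edgeR adjusted p = 0.268) and −0.52 for Ntrk3 (−1.02 to −0.01, adjusted p = 0.207). Within males they were −0.14 (−0.80 to 0.51) and 0.08 (−0.42 to 0.58). Neither gene was called in either sex. Counts per gene do not separate full-length TrkB and TrkC from the truncated forms that lack the kinase. Among Control libraries Ntrk3 varied from 10.4 to 118 CPM, so that pools of the same mouse 2 differed by that whole range.

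Of the GDNF family co-receptors, Gfra3 was the member that was higher in Nav-Tsc2 mice. Control mice 1 to 4 held 361, 235, 152 and 148 CPM of Gfra3, and Nav-Tsc2 mice held 535, 504, 442 and 392 CPM. The lowest Nav-Tsc2 mouse was above the highest Control mouse. The means were 224 ± 99.7 and 468 ± 63.9 CPM, a 2.09-fold higher level with a log2 fold change of 1.06 (SE 0.27, 95% interval 0.47 to 1.66, edgeR adjusted p = 0.0206). Pools overlapped more than mice did. Control libraries ran from 36.4 to 618 CPM and Nav-Tsc2 libraries from 289 to 659 CPM. The call was lost when Nav-Tsc2 replicate 1 was left out (log2 fold change 1.00, adjusted p = 0.0606) and when Nav-Tsc2 replicate 2 was left out (log2 fold change 1.02, adjusted p = 0.0598).

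Ret, the signaling kinase shared by the GFRα co-receptors, did not pass the test. The paper, by contrast, reports Ret as upregulated in Nav-Tsc2 mice at the same thresholds, from its own DESeq2 comparison. With DESeq2 on the mouse sums used here Ret was not called (log2 fold change 0.80, DESeq2 adjusted p = 0.102). The levels of Ret in Control mice 1 to 4 were 146, 121, 467 and 391 CPM, and in Nav-Tsc2 mice they were 539, 488, 461 and 486 CPM. Control mice 1 and 2 were low, whereas Control mouse 3 lay inside the range of the Nav-Tsc2 mice. The means were 281 ± 174 and 494 ± 32.9 CPM, with a log2 fold change of 0.81 (SE 0.39, 95% interval −0.06 to 1.68, edgeR adjusted p = 0.175). Without Control replicate 1 or 2 the value was 0.60 or 0.56, with adjusted p of 0.319 and 0.282. Without Control replicate 3 it was 1.17 with an adjusted p of 0.0469, and in a limma fit of the 24 separate libraries, in which the mouse was a random effect, it was 1.08 with an adjusted p of 0.00171.

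Gfra2, the neurturin co-receptor, followed Ret. Control mice 1 to 4 held 72.5, 40.1, 226 and 140 CPM of Gfra2 and Nav-Tsc2 mice held 190, 204, 184 and 212 CPM. As for Ret, Control mouse 3 was at the level of the Nav-Tsc2 mice or above it. The log2 fold change was 0.72 (SE 0.42, 95% interval −0.23 to 1.67, edgeR adjusted p = 0.270). Without Control replicate 1 or 2 it was 0.54 or 0.43 (adjusted p = 0.461 and 0.387). Without Control replicate 3 it was 1.22 (adjusted p = 0.0334), and in the limma fit of the 24 libraries it was 1.19 (adjusted p = 0.0149).

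The spread of Ret and Gfra2 over mice was unlike in the 2 genotypes. The coefficient of variation of Ret was 61.8% over Control and 6.67% over Nav-Tsc2 mice, and that of Gfra2 was 68.6% and 6.61%. The 12 Nav-Tsc2 pools of 100 cells ran from 382 to 563 CPM of Ret, a 1.47-fold range, and the Control pools ran from 84.5 to 769 CPM, a 9.10-fold range. The spread itself was not tested.

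Gfra1, the GDNF co-receptor, was scarcer. Control mice held 10.8, 22.0, 23.5 and 23.6 CPM and Nav-Tsc2 mice held 28.2, 31.0, 23.6 and 22.0 CPM, with overlap between the genotypes and a log2 fold change of 0.39 (SE 0.24, 95% interval −0.15 to 0.94, edgeR adjusted p = 0.298). An antisense gene model, Gm16277, shares 416 bases or 7.60% of the Gfra1 exons, and the library kit does not mark strand, so reads there cannot be assigned to either gene.

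Met had few counts in either genotype. Control mice 1 to 4 had 2, 12, 0 and 21 counts in all and Nav-Tsc2 mice had 77, 10, 60 and 59 counts. Of the 12 Control libraries, 8 were at 0, and no Nav-Tsc2 library was at 0. The means were 0.171 ± 0.195 and 0.935 ± 0.578 CPM, and Control mice 2 and 4 were above Nav-Tsc2 mouse 2. The log2 fold change of 2.45 had a wide interval (SE 1.15, 95% interval −0.12 to 5.01, edgeR adjusted p = 0.167), and Met was not called.

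**Figure D2:**
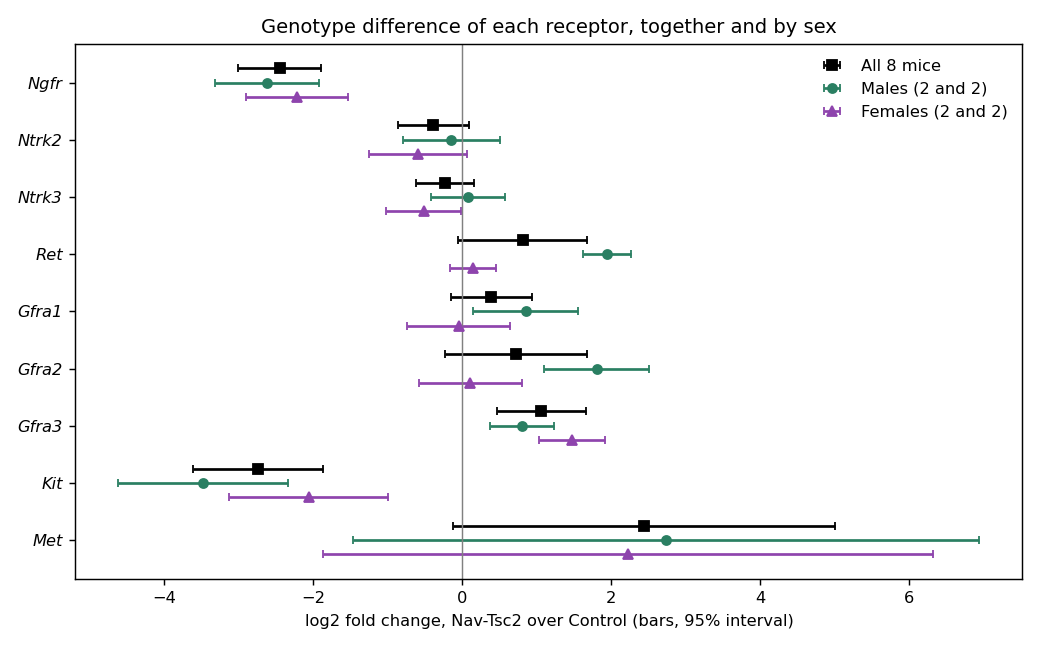
Log2 fold change of each receptor, Nav-Tsc2 over Control (horizontal axis; bars are 95% intervals), from the fit of all 8 mice (black squares) and within males (green circles) and females (purple triangles), 2 mice per genotype and sex. Ngfr and Kit lie below 0 and Gfra3 lies above 0 in both sexes, and Ret and Gfra2 lie above 0 in males, at 1.95 and 1.81, and close to 0 in females, at 0.14 and 0.11.

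Among Control mice both females were above both males in Ret and in Gfra2. Ret ran from 84.5 to 174 CPM in the 6 libraries of male Control mice and from 265 to 769 CPM in the 6 libraries of females, with no overlap. The Control libraries of Gfra2 overlapped between the sexes, at 14.4 to 115 CPM in males and 28.4 to 353 CPM in females. In Nav-Tsc2 mice Ret ran from 464 to 563 CPM in males and from 382 to 497 CPM in females. In Control mice the female minus male difference of Ret was 1.69 on the log2 scale (SE 0.14, edgeR adjusted p = 0.00505), at a threshold that 0.640% of all genes passed. The same differences were 1.70 for Gfra2 (adjusted p = 0.0628) and −0.99 for Gfra3 (adjusted p = 0.0703), which did not pass. Sex cannot be told apart from anything else that mice 1 and 2 share and mice 3 and 4 do not, and each sex had 2 mice per genotype.

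Within males the genotype difference was called for 5 of the 9 receptors, a rule that called 15.4% of all genes there: Ngfr, Kit, Ret, Gfra2 and Gfra3. The log2 fold changes of Ret and Gfra2 in males were 1.95 (SE 0.14, edgeR adjusted p = 0.000528) and 1.81 (SE 0.31, adjusted p = 0.00803). Within females 3 of 9 were called, namely Ngfr, Kit and Gfra3, against 7.07% of all genes. The values of Ret and Gfra2 in females were 0.14 (SE 0.13, adjusted p = 0.599) and 0.11 (SE 0.30, adjusted p = 0.875). Gfra3 was higher in Nav-Tsc2 mice of both sexes, by 0.80 in males (SE 0.19, adjusted p = 0.0254) and by 1.48 in females (SE 0.19, adjusted p = 0.00544). Kit changed by −3.48 in males and −2.06 in females, and Ngfr by −2.62 and −2.21.

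The difference between the sexes in the genotype effect was tested as an interaction. With edgeR it passed for 0 of the 9 receptors at an adjusted p under 0.05, as it did for 0.00582% of all genes, and 3 of the 9 had an unadjusted p under 0.05, where 9.22% of all genes did. The interaction of Ret was −1.80 (SE 0.19) with an unadjusted p of 1.56e-05 and an adjusted p of 0.0599, and that of Gfra2 was −1.69 (SE 0.42, adjusted p = 0.304). With DESeq2, 2 of the 9 passed, Ret (adjusted p = 4.15e-12) and Gfra2 (adjusted p = 0.00379), where 1.98% of all genes did. Sex beside genotype passed for 0 of the 9 receptors with edgeR and with DESeq2 and for 0.0291% and 0.787% of all genes with these tools, and 3 receptors had an unadjusted p under 0.05 in the edgeR fit, where 6.66% of all genes did. The call of an interaction thus differed between tools.

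Levels of different receptors were compared per kb of exon. In Control mice the order of the mean CPM per kb was Ngfr (118), Gfra3 (112), Ret (41.6), Gfra2 (33.8), Kit (12.7), Gfra1 (3.65), Ntrk2 (2.06), Ntrk3 (1.71) and Met (0.0222). Neighbours in this order overlapped between mice except for Gfra3 and Ret, Kit and Gfra1, and Ntrk3 and Met. In Nav-Tsc2 mice the order was Gfra3 (234), Ret (73.0), Gfra2 (55.8), Ngfr (21.7), Gfra1 (4.79), Kit (1.91), Ntrk2 (1.57), Ntrk3 (1.46) and Met (0.122), and the neighbours that overlapped were Kit with Ntrk2 and Ntrk2 with Ntrk3. Ngfr was therefore first by its mean in Control mice and below Gfra2 in every Nav-Tsc2 mouse.

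**Figure D3:**
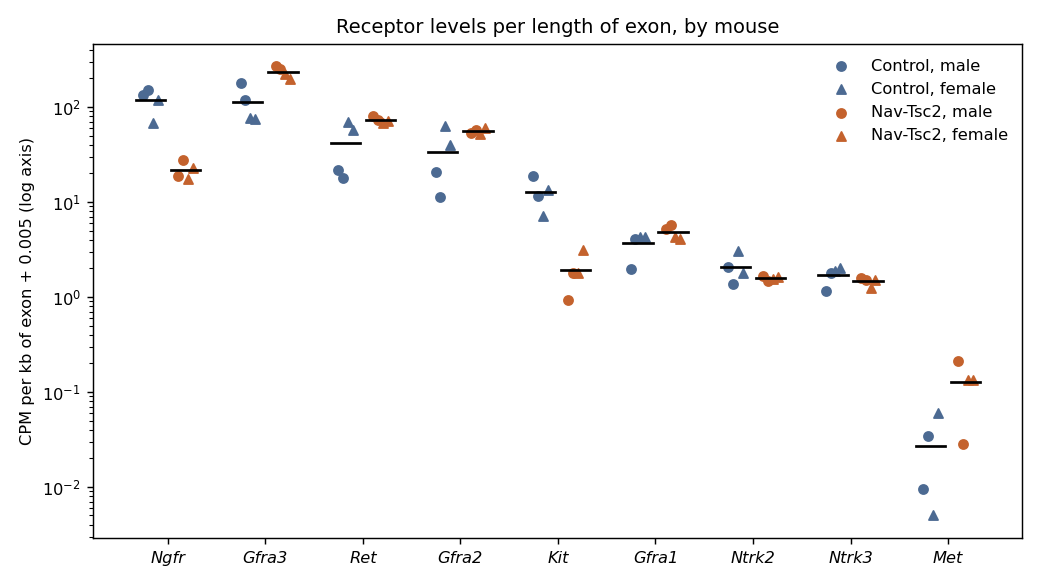
Level of each receptor per mouse in CPM per kb of exon (log axis, 0.005 added), ordered by the Control mean, with circles for males and triangles for females, Control in blue and Nav-Tsc2 in orange, and bars at the means of 4 mice. Ngfr drops from a mean of 118 to 21.7 and Kit from 12.7 to 1.91, whereas Gfra3 rises from 112 to 234.

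The balance among the GFRα co-receptors followed from these levels. Gfra3 made up 88.9%, 88.4%, 52.8% and 62.7% of the summed CPM per kb of Gfra1, Gfra2 and Gfra3 in Control mice 1 to 4, and between 75.4% and 82.0% in Nav-Tsc2 mice. Gfra2 made up 10.1%, 8.53%, 44.2% and 33.6% in Control mice and between 16.4% and 23.0% in Nav-Tsc2 mice. The share of Gfra3 in Nav-Tsc2 mice thus lay between those of the male and the female Control mice. The summed level ran from 118 to 203 CPM per kb in Control and from 260 to 327 CPM per kb in Nav-Tsc2 mice, without overlap. Relative to Ret, the co-receptors summed to 2.04 to 9.41 times its level in Control and to 3.62 to 4.38 times in Nav-Tsc2 mice.

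The receptors also varied together, or against each other, across the 24 libraries. Correlations were taken across the 24 libraries on the log2(CPM + 1) scale after the mean of each genotype was removed, and are given as descriptions. The libraries of a mouse share that animal, so the points are not independent. Differences between mice and between sexes were not removed, so r holds these as well as differences between pools of a mouse. For Ret in Control the SD on this scale was 1.01 between mouse means and 0.47 between libraries of a mouse. Ret and Gfra2 varied together (r = 0.84), as did Ngfr and Kit (r = 0.70). Gfra3 went against Gfra2 (r = −0.48), and Ngfr against Ret (r = −0.47).

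The receptors were then set beside the markers of neuron classes. Ret and Gfra2 had r = 0.89 and r = 0.90 with the mean of 8 nonpeptidergic markers, a list that includes Mrgprd and P2rx3, and Gfra3 had r = −0.54. None of these 8 markers was called between genotypes, with a median log2 fold change of 0.56. Mrgprd changed most, from a mean of 159 CPM in Control to 537 CPM in Nav-Tsc2 mice (1.76, edgeR adjusted p = 0.0935). Its mice did not overlap between genotypes, as for 26.9% of all genes tested. Plxnc1 had a slightly lower mean in Nav-Tsc2 mice (−0.07). The 8 markers summed to between 560 and 1705 CPM in Control and between 1535 and 1764 CPM in Nav-Tsc2 mice. The sum of the nonpeptidergic markers moved with Ret and Gfra2, and its part in the differences of these receptors was not tested. Ngfr had r = 0.72 with the mean of 6 peptidergic markers, Kit had r = 0.45, Gfra3 r = 0.25 and Ret r = −0.69. With the mean of the 8 pan-neuronal markers Ngfr had r = 0.66 and Kit r = 0.44, so these values were not particular to the peptidergic list, whereas Ret had r = −0.18 and Gfra2 r = −0.13. Of the 6 peptidergic markers 2 were called, Calca and Smr2, both lower in Nav-Tsc2 mice. The other 4, Calcb, Tac1, Adcyap1 and Bmpr1b, were not called (log2 fold change −0.48, −0.24, −0.24 and −1.73). The 6 markers summed to between 9380 and 19057 CPM in Control and between 4144 and 6886 CPM in Nav-Tsc2 mice. Most of that drop was Calca, which averaged 10162 CPM in Control and 2557 CPM in Nav-Tsc2 mice. The peptidergic sum moved with Ngfr and Kit, and its part in their differences was not tested either.

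**Figure D4:**
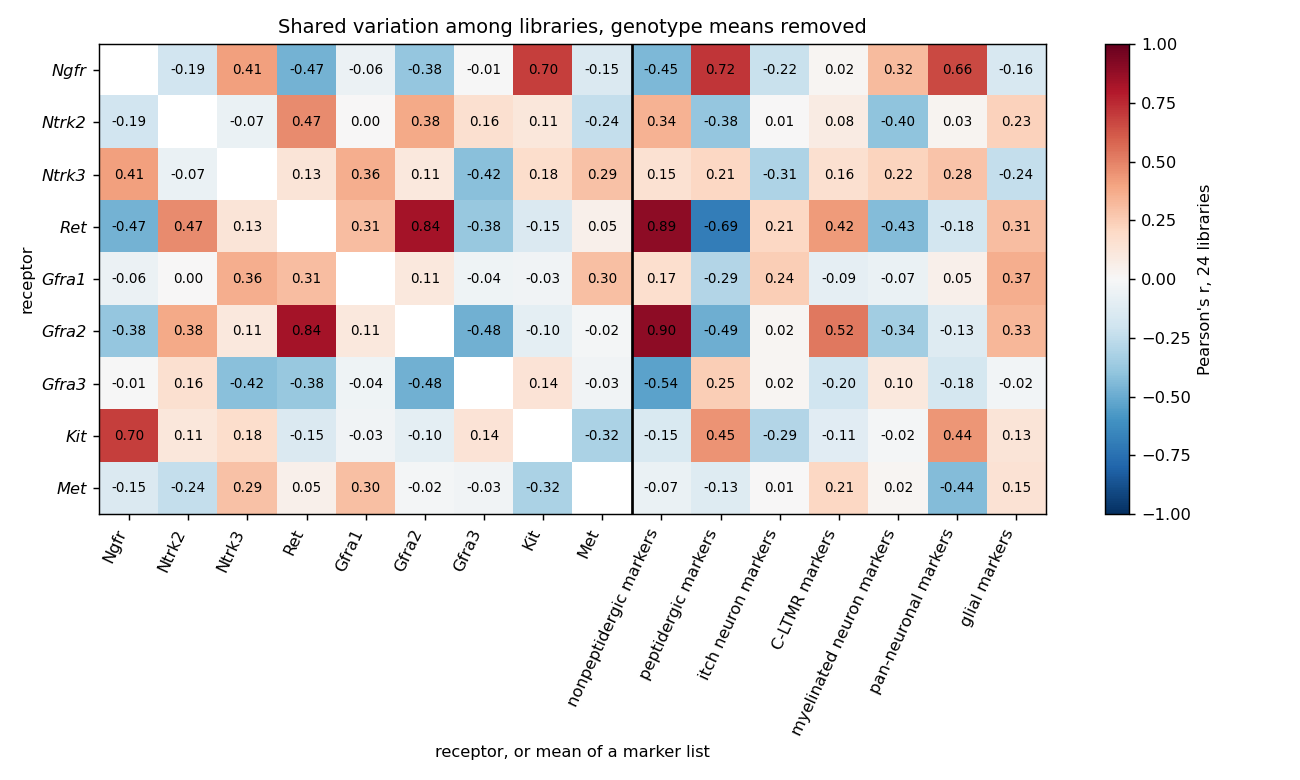
Pearson's r between receptors (left of the line) and between each receptor and the mean of a marker list (right of the line), over 24 libraries on the log2(CPM + 1) scale with genotype means removed; red is positive and blue negative. Ret and Gfra2 share their variation with each other (0.84) and with the nonpeptidergic markers (0.89 and 0.90), and Ngfr shares its variation with Kit (0.70), the peptidergic markers (0.72) and the pan-neuronal markers (0.66).

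Markers of other classes gave a wider frame, beside the 8.00% of all genes tested that were called lower and the 9.12% called higher. For the C-low threshold mechanoreceptors 1 of 3 markers was called higher, Th, which encodes tyrosine hydroxylase, at 99.4 CPM in Control and 865 CPM in Nav-Tsc2 mice (log2 fold change 3.12, SE 0.85, edgeR adjusted p = 0.0282), with overlap between the genotypes. Of the 6 itch neuron markers 4 were called lower, among them Sst and Il31ra, and 1 higher, Nts. Of the 6 myelinated neuron markers 2 were called lower, Ldhb and Cntnap2, and 4 were not called. Of those 4, Pvalb and Spp1 had higher means in Nav-Tsc2 mice (log2 fold change 2.36 and 2.19). Nefh and Nefm had lower means (−0.45 and −0.30). The 6 markers summed to between 1778 and 2501 CPM in Control and between 1277 and 1789 CPM in Nav-Tsc2 mice. Among lists for non-neuronal cells, 3 of the 4 endothelial markers tested were called higher in Nav-Tsc2 mice. Tek was not called (0.510 and 0.563 CPM), and Pecam1, Cldn5 and Cdh5 had too few counts for a test. The 7 markers of the list summed to between 0.508 and 2.13 CPM in Control and between 7.81 and 20.6 CPM in Nav-Tsc2 mice. Flt1 alone averaged 0.0338 CPM in Control and 8.56 CPM in Nav-Tsc2 mice. Of the 6 macrophage markers tested 1 was called higher, Cx3cr1, and 5 were not called. Of those 5, C1qb had a lower mean in Nav-Tsc2 mice (log2 fold change −1.60). Csf1r, Cd68, Aif1 and Lyz2 had higher means (2.21, 2.03, 0.34 and 0.05). C1qa and C1qc had too few counts for a test. The 8 listed summed to between 3.94 and 9.50 CPM in Control and between 8.48 and 26.0 CPM in Nav-Tsc2 mice. None of the 6 fibroblast markers was called. Whether these transcripts come from such cells, and any part of such cells in the receptor levels, was not tested.

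The genes most like each receptor, by the same correlation, were taken from 8203 genes with a mean of at least 10 CPM. For Ret these included Syt7 (r = 0.95) and Lpgat1 (r = 0.91), and for Gfra2 they were Kcnip2, Casz1 and Cdh1 (each r = 0.92). For Ngfr they included Plcb1 (r = 0.93) and Fstl5 (r = 0.86), and for Kit they were Tmem100 and Bcl11b (both r = 0.80) and Cgnl1 (r = 0.77). For Gfra3 they were Zbtb20 (r = 0.92), Slc10a6 (r = 0.84) and Wls (r = 0.82). Of these genes Plcb1, Fstl5, Tmem100, Bcl11b and Cgnl1 were themselves called lower in Nav-Tsc2 mice and Syt7 and Wls higher, whereas Zbtb20 and Slc10a6 were called lower although Gfra3 was higher. For Ntrk3 the genes were Atp2b2 (r = 0.83), Satb1 and Tab3 (both r = 0.82), for Ntrk2 they were Celf6 (r = 0.77), Zfp932 (r = 0.70) and Rhot2 (r = 0.69), and for Gfra1 they were Hspa4l (r = 0.72), Zdhhc2 (r = 0.71) and Tmem63c (r = 0.68). Met was too sparse for its likeness to be read.

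The ligands of these receptors were measured in the same cells. Of the 9 ligand genes reported here 4 had enough counts for a test, and 3 of these were lower in Nav-Tsc2 mice by the rule above. That rule called 8.00% of all genes tested lower. The ligand genes reported are not all ligands of the receptors, so no median or direction is given for the ligands as a group. Bdnf, the TrkB ligand that peptidergic nociceptors make themselves, averaged 147 CPM in Control and 59.0 CPM in Nav-Tsc2 mice (log2 fold change −1.32, SE 0.37, edgeR adjusted p = 0.0332). Hgf, the ligand of Met, averaged 20.2 and 3.60 CPM (−2.48, SE 0.64, adjusted p = 0.0226), although the mice of the genotypes overlapped. Kitl, which encodes stem cell factor, averaged 37.8 and 20.2 CPM (−0.90, SE 0.27, adjusted p = 0.0417). Ntf3, the TrkC ligand, did not pass (−1.86, SE 1.21, adjusted p = 0.319). Gdnf, Nrtn, Artn, Pspn and Ntf5 had too few counts to be tested.

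Among 14 further receptors and co-receptors tested, 3 were lower and 2 were higher by that rule, and the list median was −0.00 on the log2 scale. Over all genes tested 8.00% were called lower and 9.12% higher. Sorl1, a sorting receptor of the family that includes sortilin, was lower in Nav-Tsc2 mice (218 and 80.7 CPM, log2 fold change −1.43, SE 0.14, edgeR adjusted p = 0.000213), as was its relative Sorcs3 (−1.83, SE 0.43, adjusted p = 0.0158). Lingo1, a partner of p75NTR in the Nogo receptor complex, was lower as well (−1.33, SE 0.37, adjusted p = 0.0308), with overlap between the mice. Sort1, which encodes sortilin, the co-receptor of p75NTR for proneurotrophins, was higher (0.92, SE 0.26, adjusted p = 0.0318). Sdc3, a heparan sulfate proteoglycan that binds GDNF family ligands, was higher too (19.3 and 68.5 CPM, 1.83, SE 0.16, adjusted p = 0.000109). Of 13 intracellular partners and proteases of p75NTR, 1 was called lower, the γ-secretase subunit gene Psen2 (−0.52, SE 0.10, adjusted p = 0.00649), and 1 higher, Bex3, which encodes the p75NTR-binding protein NADE (0.66, SE 0.15, adjusted p = 0.0110), with a list median of −0.07.

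**Figure D5:**
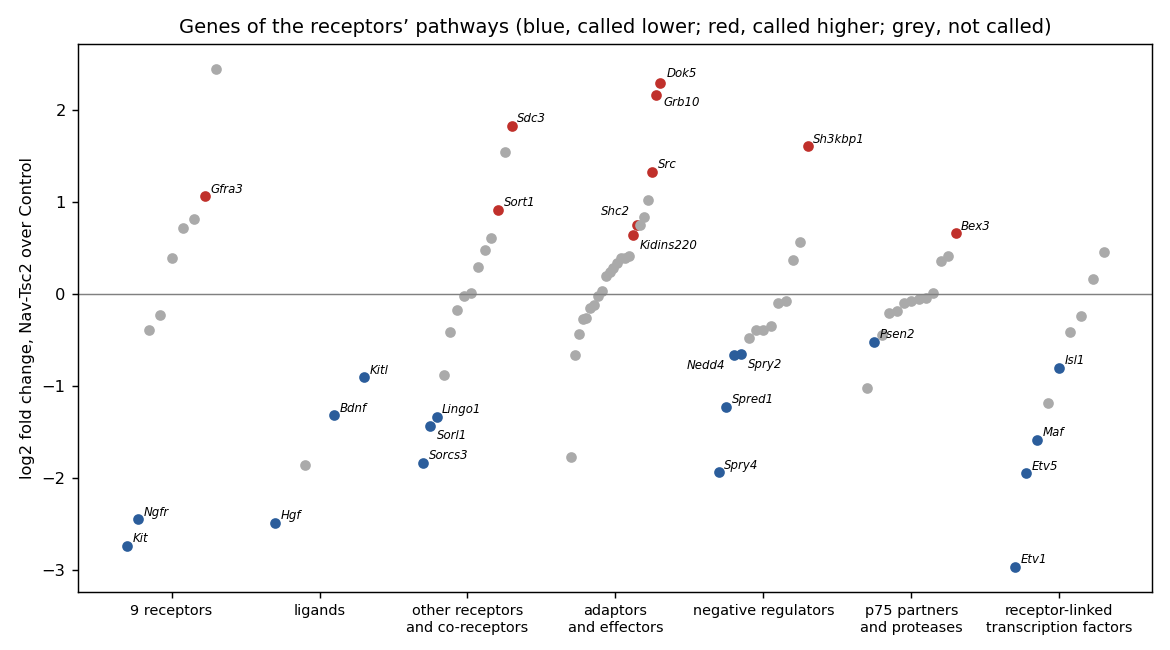
Log2 fold change, Nav-Tsc2 over Control, of the tested genes of the receptors' pathways that are reported here (vertical axis), by list, with genes called lower in blue, called higher in red and not called in grey. The 5 called adaptors all lie above 0 and the 4 called transcription factors all lie below 0. Of all genes tested 9.12% were called higher and 8.00% lower.

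Downstream of the receptors, the adaptors and the inhibitors were described as lists. Over all genes tested the rule called 9.12% higher and 8.00% lower. Of 24 adaptors and effectors tested, 5 were called higher and 0 lower, and the list median was 0.31 on the log2 scale. Grb10, an adaptor that binds Ret and other receptor tyrosine kinases, averaged 20.4 CPM in Control and 91.0 CPM in Nav-Tsc2 mice (2.16, SE 0.23, edgeR adjusted p = 0.000278). Dok5, a docking protein that binds Ret, was higher by 2.30 (SE 0.29, adjusted p = 0.000735). Kidins220, a scaffold of Trk receptors, was higher by 0.65 (SE 0.09, adjusted p = 0.00117). Shc2 and Src were the other adaptors and effectors called. Of 13 negative regulators tested, 4 were called lower and 1 higher (list median −0.39). Spry4 and Spred1, which restrain Ras and ERK signaling, changed by −1.93 (SE 0.25, adjusted p = 0.000800) and −1.22 (SE 0.20, adjusted p = 0.00269). The ubiquitin ligase gene Nedd4 changed by −0.66 (SE 0.10, adjusted p = 0.00190), and Spry2 was the other gene called lower. Sh3kbp1, whose product helps internalize activated receptors, was higher by 1.61 (SE 0.20, adjusted p = 0.000734).

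Transcription factors that are tied to these receptors, as regulators or as targets of their signaling, were called lower in 4 of 9 genes tested and higher in 0 (list median −0.80 on the log2 scale). The rule called 8.00% of all genes tested lower and 9.12% higher. Etv1 and Etv5, ETS factors that neurotrophin and Ret signaling induce, averaged 39.4 and 36.9 CPM in Control and 5.06 and 9.57 CPM in Nav-Tsc2 mice (−2.96, SE 0.45, edgeR adjusted p = 0.00184, and −1.95, SE 0.22, adjusted p = 0.000430). Maf, which acts in Ret-positive mechanoreceptors, changed by −1.58 (SE 0.17, adjusted p = 0.000349). Isl1, which is required for nociceptor differentiation, was the other factor called. Runx1, which promotes Ret in the nonpeptidergic lineage, did not pass (0.46, SE 0.25, adjusted p = 0.234).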

How the data were processed

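RNA-seq was done on 24 libraries of L4 DRG cells sorted for GFP. The deposited values are whole-number counts per gene for each library; per the study's methods the authors prepared cDNA with the SMARTer Ultra Low kit, checked reads with FastQC, aligned them to mm10 with STAR and counted them with HTSeq, without molecular identifiers. The deposited table of the authors' own DESeq2 comparison (fold changes and p-values) was not used. Between 47.6% and 55.9% of the records in a library lay in HTSeq's summary lines, which name no gene, and were left out.

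For each mouse the counts of its 3 libraries were added up. Libraries of a mouse differed by more than counting noise, so none was a duplicate. Differences were tested with edgeR 4.0.16 in R 4.3.3 (TMM scaling, which the CPM values share, filterByExpr, quasi-likelihood F-test, Benjamini-Hochberg adjustment over 17178 genes; SE from the log2 fold change and F). The call rule was an adjusted p below 0.05 together with a log2 fold change beyond 0.5. Sex was tested in a model with its interaction. DESeq2 1.42.0, limma 3.58.1 and other scalings, filters and samples were alternatives. Exon lengths and positions came from GENCODE vM21 on GRCm38, the build of mm10, and promoters from RefSeq, which had entries for 5 members.

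Samples with the same replicate number deviated together (r = 0.184, 0.185, 0.108 and 0.199 over 8445 genes), and a fit with that number as a block was run. The labels do not say what a number marks, and the pairs of the same sex with unlike numbers gave r = 0.198, 0.0627, 0.110 and 0.185. Replicates are mice; p-values measure the spread between these mice.

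Named were the 9 receptors, up to 3 called genes in each direction per list by the smallest adjusted p, and the 3 genes most like each receptor. Single further genes were added after their values were seen. They were S100b, Cpa3, Ntf3, Runx1, Shc2, Src, Spry2, Isl1, Cx3cr1, Mrgprd, P2rx3 and the markers at 0 or with too few counts for a test. Marker genes that were not called were added too, namely Plxnc1, Pvalb, Spp1, Nefh, Nefm, Tek, Csf1r, Cd68, Aif1, Lyz2, C1qb, Calcb, Tac1, Adcyap1 and Bmpr1b. Some genes that meet these rules are not reported here. The members and lists were chosen with earlier results of these data known. Tafa4 was matched through its older symbol.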

Additional observations from a re-analysis of the deposited data

Results flagged for a closer look

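Among 18 groups of 4 mice (9 receptors in each genotype), the level of Gfra1 in Control mouse 1, at 10.8 CPM, stood apart from the other Control mice by more than Dixon's 95% limit. The other Control mice held between 22.0 and 23.6 CPM. Chance flags about 1 in 20 groups, or 0.9 of these 18.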

How the results depend on the processing

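Ngfr and Kit were called lower under every alternative run, and no receptor changed direction under any of them. When the 24 libraries were fitted separately, with a random effect for the mouse, 5 receptors were called between genotypes and 3 of these were higher, since Ret and Gfra2 were added; that fit called 24.9% of all genes and 15.9% higher, against 17.1% and 9.12%; Met was not tested in that fit. Leaving out each replicate in turn gave 2 to 5 receptors called, with 0 to 3 called higher: Gfra3 was lost without Nav-Tsc2 replicate 1 or 2, and Ret and Gfra2 were gained without Control replicate 3. The fit with the replicate number as a block called 3 receptors, 2 lower and 1 higher, and changed no call. An interaction of genotype and sex was called for 4 receptors without the low-count filter (Ret, Gfra2, Gfra3 and Kit), where 2.05% of all genes were called, and for 2 with DESeq2 (1.98%), against 0 with the filter in edgeR (0.00582%). Between sexes 3 receptors were called without that filter (1.26% of all genes) against 0 with it (0.0291%); the cause was not tested. Over all genes 2941 were called with edgeR; alternatives gave from 2145 to 4166. Met had 35 counts in all Control mice together, and the sex contrasts rest on 2 mice each. Intervals for single libraries were not given, since amplified reads without molecular identifiers are not independent molecules.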
